A study of Homo sapiens with 6 samples.

Results

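The heme biosynthesis enzymes were followed in OCI-AML5, a human cell line established from acute myeloid leukemia, after exposure to S767. The genes were chosen by name as enzymes of the pathway and numbered 8 (ALAS1, ALAS2, ALAD, UROS, UROD, CPOX, PPOX and FECH) of the 60609 genes listed for each library. Cells were grown in aMEM with heat-inactivated FBS and GM-CSF and exposed for 24 h to either DMSO, the solvent (3 libraries), or 1 µM S767, the compound characterised by the study (3 libraries). Polyadenylated RNA was sequenced as stranded libraries to ask how gene expression differed after exposure to the compound. The model is a single cell line at 1 dose and 1 time, without a second line or clone.

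Heme synthesis begins in the mitochondrion, where aminolevulinate synthase joins glycine to succinyl-CoA. Later steps in the cytosol build the porphyrin ring, and the last steps, back in the mitochondrion, oxidise it and insert ferrous iron. The first step is usually the slow one, and it exists in a housekeeping form (ALAS1), held down by heme itself, and an erythroid form (ALAS2), which is driven by GATA1 and whose translation depends on iron.

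Of the 8 genes, ALAS1 alone passed an adjusted p of 0.05. So did 0.00483% of all genes tested, or 3.23% with the replicate number as a block in the model, where ALAS1 was again alone among the 8. Without the block ALAS1 mRNA was 1.79-fold higher with S767 (95% interval 1.64 to 1.96). ALAS2 had no fragment in any library, and the other 6 enzymes had estimated changes within -0.02 to 0.09 on the log2 scale. Their libraries overlapped between the groups, as did those of most genes tested (all but 9.21%). Relative to the summed transcript level of the pathway genes, ALAS1 went from 13.8% ± 0.850 (SD, n = 3) with DMSO to 22.3% ± 0.924 (SD, n = 3) with S767.

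The start regions of both aminolevulinate synthase genes are shown because these genes encode the same reaction and were at opposite ends of the measured range with S767. Each sequence is from RefSeq (GRCh38.p14), reads 5′ to 3′ in the direction of the gene, and covers 250 bases before to 50 bases after the annotated start. Capitals mark matches, on either strand, to a set of searched motifs. ALAS1 lies at chr3:52197833-52198132 on the plus strand and ALAS2 at chrX:55030928-55031227 on the minus strand.
ALAS1: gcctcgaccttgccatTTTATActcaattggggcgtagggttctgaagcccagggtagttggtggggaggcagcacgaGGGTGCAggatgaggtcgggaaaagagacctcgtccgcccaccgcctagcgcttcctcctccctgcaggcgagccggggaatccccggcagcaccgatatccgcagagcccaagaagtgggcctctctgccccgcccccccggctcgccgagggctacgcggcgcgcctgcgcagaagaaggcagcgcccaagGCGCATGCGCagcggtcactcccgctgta
ALAS2: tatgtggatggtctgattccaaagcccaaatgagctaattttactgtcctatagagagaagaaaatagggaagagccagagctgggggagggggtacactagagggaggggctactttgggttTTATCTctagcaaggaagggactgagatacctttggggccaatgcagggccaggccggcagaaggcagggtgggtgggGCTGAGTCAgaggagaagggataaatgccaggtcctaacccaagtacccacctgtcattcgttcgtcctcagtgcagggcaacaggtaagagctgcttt

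The ALAS1 region had a GC content of 67.0% with 27 CpG dinucleotides, and the ALAS2 region 52.7% with 3, against a median GC content of 58.7% over 35116 promoters of the same length. Both strands were searched for motifs of factors tied to the pathway or to metals. In ALAS1 the letters of the NRF1 motif (GCATGCGC) matched on both strands in overlapping positions, beginning 22 and 24 bases after the start, a motif held by 3.05% of all promoters. ALAS1 also held the letters of a TATA box (TATAAA) on the reverse strand at -234, as did 11.5% of promoters. At -172 the reverse strand of ALAS1 matched a form of the metal response element (TGCACNC) that 12.1% of promoters held. ALAS2 held the erythroid GATA letters (AGATAA) on the reverse strand at -127, found in 10.3% of promoters. At -49 the reverse strand of ALAS2 matched the antioxidant response element (TGACNNNGC), found in 13.3% of promoters.

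RefSeq start regions were found for 7 of the 8 genes, UROS being the other. CPOX held 2 GATA matches, at -207 and -125, and FECH held the antioxidant response letters at -38. ALAD held the other searched form of the metal response element (TGCGCNC) at -238, a form found in 19.97% of promoters. The windows of UROD and PPOX held none of the searched letters. The exact letters CCACACCC, a form of the CACCC box of erythroid genes found in 3.28% of promoters, occurred in none of the 7 windows. Neither did the E box (CACGTG), which 7.26% of promoters held. The shorter letters CACCC were not searched for. The ALAS2 window holds them on the reverse strand, shortly before its antioxidant response match. These matches describe letters in a window and no binding was measured.

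Library depth was high, with 149994700 to 258029564 gene fragments per library on the strand of the genes. Levels within a gene are given as CPM, the number of these fragments scaled to a common library size with TMM factors, and levels between genes as the TPM of RSEM, which are corrected for length. The labelled cell type was checked with markers: each of 8 myeloid markers exceeded 1 TPM in every library (CSF2RA, a pseudoautosomal gene with a second copy in the annotation, had 0 fragments in the gene counts but 2.9 to 3.89 TPM), and their summed level was 772 to 1180 TPM with DMSO and 768 to 1184 TPM with S767. Of 14 erythroid markers, 12 stayed under 1 TPM in every library, whereas EPOR and TFR2 exceeded 1 TPM. In the gene counts 5 (the globins HBA1, HBA2, HBG1 and HBG2, and the globin chaperone AHSP) were at 0 fragments. Of these HBA2 still reached 0.09 TPM by RSEM, and the others were at 0 TPM. The summed erythroid level was 13.98 to 15.2 TPM with DMSO and 13.5 to 15.7 TPM with S767. All 5 stromal or epithelial markers and 4 of 5 lymphoid markers stayed under 1 TPM, NKG7 being the exception. In bulk RNA a lower number of cells with a transcript and less of it per cell cannot be told apart, and the sources say that treatment was in triplicate but not whether the cells came from separately grown cultures, so p-values measure the spread between these libraries.

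ALAS1 (ENSG00000023330.15, chr3:52198086-52214327, plus strand), the housekeeping synthase of the first step, was at 60.1, 54.6 and 59.8 CPM in the DMSO libraries and at 105.9, 109.1 and 97.8 CPM in the S767 libraries. Every S767 library was above every DMSO library, and the gap between the groups was wider than the spread within either. These levels rested on 8109 to 15467 fragments per library with DMSO and 19249 to 25226 with S767. The mean rose from 58.2 ± 3.13 to 104.3 ± 5.83 CPM (SD, n = 3 each), a log2 fold change of 0.84 (SE 0.06, 95% interval 0.71 to 0.97) with an adjusted p of 0.00435 by the edgeR quasi-likelihood test with Benjamini-Hochberg adjustment over 20725 genes.

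With this test 1 of the 7 enzymes tested passed an adjusted p of 0.05, where 0.00483% of all genes tested passed it in either direction, that is ALAS1 and no other gene. ALAS1 was also the only enzyme past the limits that the study set for up-regulated genes (P under 0.05 and log2 fold change over 0.4), which 0.429% of genes passed. Libraries with the same replicate number rose by 0.82, 1.00 and 0.71 on the log2 scale, higher in 3 of 3 pairs, as were 19.9% of all genes tested. The two-sided exact permutation test gave p = 0.1 for ALAS1, which is the smallest that 3 libraries against 3 allow. This permutation did not take the replicate numbers into account. When log2(TPM + 1) or log2(TPM + 0.1) was tested with limma in place of the counts, the change was 0.83 or 0.84 but the limma adjusted p was 0.405 or 0.240.

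**Figure D1:**
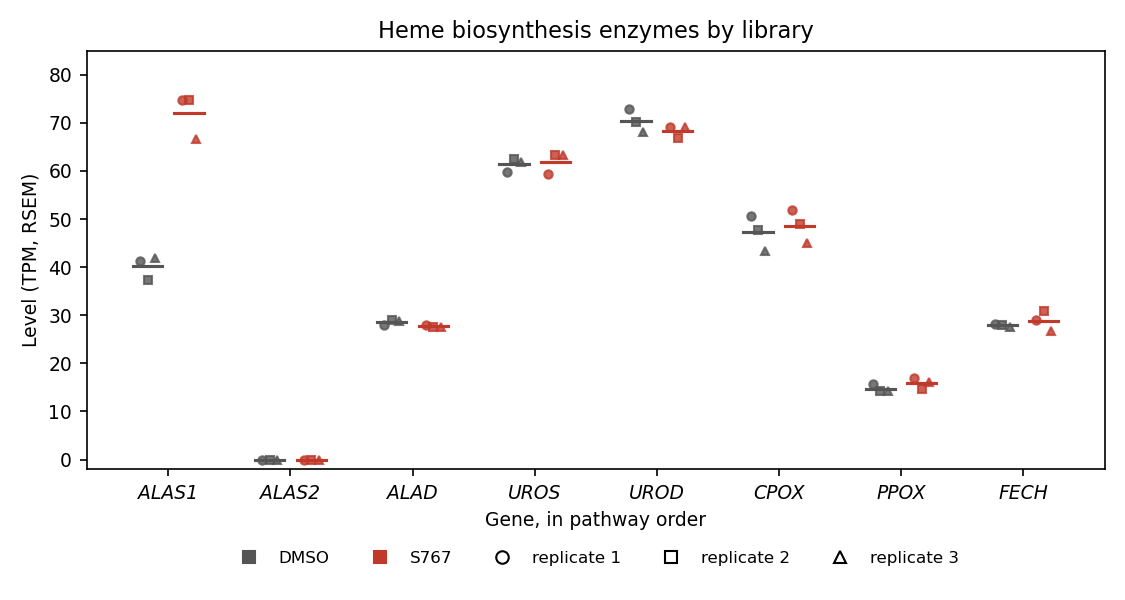
Transcript level (RSEM TPM) of the 8 heme biosynthesis genes in each of the 3 DMSO and 3 S767 libraries, in pathway order, with points for libraries and bars for the group means. ALAS1 moved from 40.1 to 72.1 TPM on average without overlap, and ALAS2 was at 0 in all 6 libraries.

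Within libraries, ALAS1 also moved against the rest of the pathway. Its log2 CPM minus the mean log2 CPM of the other 6 tested enzymes was 0.40, 0.26 and 0.46 in the DMSO libraries. In the S767 libraries the same difference was 1.24, 1.21 and 1.10. The 2 sets did not overlap, and their means differed by 0.81 on the log2 scale (two-sided exact permutation test, p = 0.1, n = 3 each). Since each value is a contrast inside 1 library, scaling between libraries has no part in it apart from the small prior count.

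The transcript levels per length gave the same ordering of groups. ALAS1 was at 41.23, 37.36 and 41.83 TPM with DMSO and at 74.76, 74.81 and 66.65 TPM with S767. The other enzymes together summed to 250.3 ± 5.71 TPM (SD, n = 3) with DMSO and 251.5 ± 3.32 TPM (SD, n = 3) with S767, with overlapping libraries (exact permutation test, p = 0.8). The share of the pathway's summed TPM that was ALAS1 ranged from 12.9% to 14.6% with DMSO and from 21.2% to 22.9% with S767, without overlap (exact permutation test, p = 0.1). The effective length that RSEM used for ALAS1 was 1804 ± 18.2 bases with DMSO and 1813 ± 29.8 bases with S767 (SD, n = 3 each), and these overlapped.

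**Figure D2:**
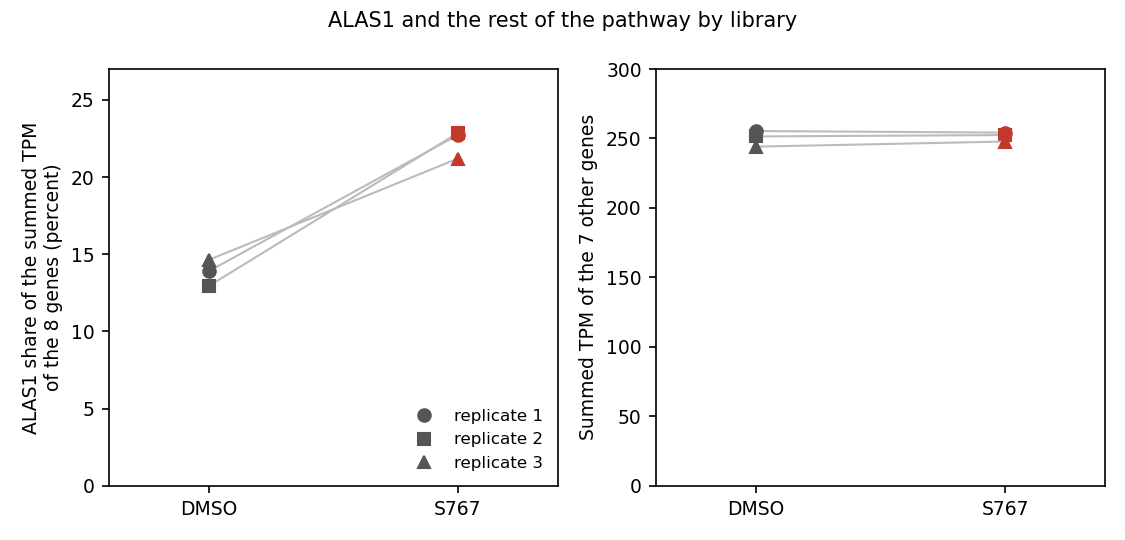
Share of the summed TPM of the 8 heme biosynthesis genes that was ALAS1, in percent, for each library by group. The 3 S767 libraries sit between 21.2% and 22.9%, all above the DMSO libraries at 12.9% to 14.6%.

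Among all genes tested, ALAS1 had the lowest P without the block. With the replicate block 1 gene had a lower P, TFRC, the transferrin receptor, named here after its values were seen. Of 9195 genes with a mean of at least 10 CPM, 0 had a larger log2 fold change and 1 fell by more. That gene was ENPP2, named here after its values were seen, with a log2 fold change of -1.16 (SE 0.40). Of the 12786 genes with a mean of at least 1 CPM, 0 rose further and 12 fell further, whereas over all 20725 genes 55 rose further and 124 fell further. The genes that moved more than ALAS1 upward were therefore all below 1 CPM on average.

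**Figure D3:**
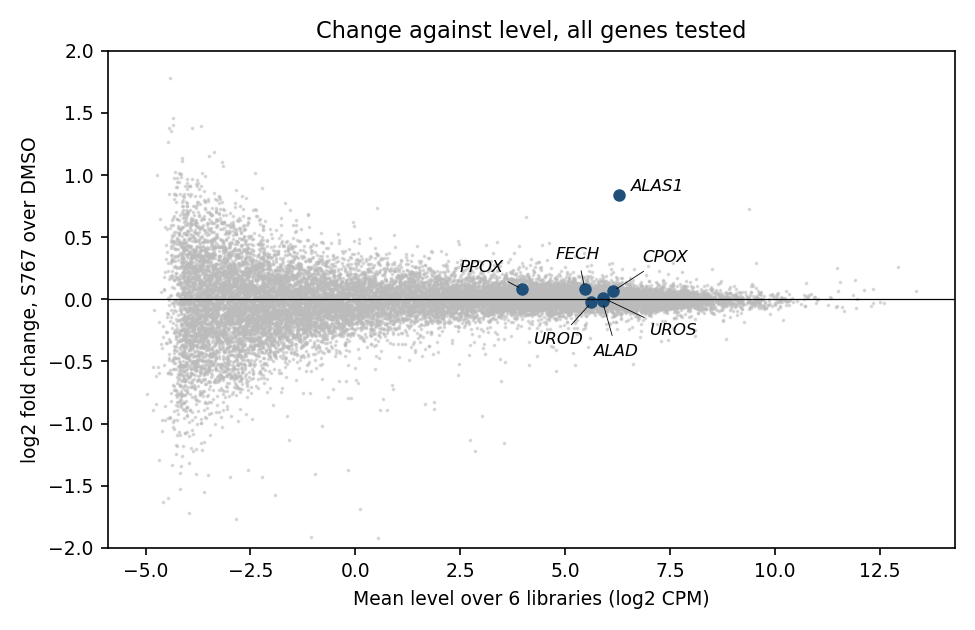
Log2 fold change (S767 over DMSO) of all genes tested against their mean level in log2 CPM, with the 7 tested heme biosynthesis genes marked. ALAS1 stands at 0.84, above every other gene with a mean of at least 1 CPM, the other 6 enzymes lie near 0, and 8 genes outside a log2 fold change of ±2 are not drawn.

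ALAS2 (chrX:55009055-55031064, minus strand), the erythroid synthase, had 0 fragments on its strand in each of the 6 libraries and 0 TPM. A count of 0 allows up to 0.0116 to 0.0200 CPM per library (3 counts), so that ALAS1 was at least 2728-fold to 8290-fold higher than ALAS2 within a library, in CPM not corrected for length. Whether ALAS2 differed between the groups was not detectable at this depth. The opposite strand of ALAS2 held 6 to 16 fragments per library. GATA1, the erythroid activator of ALAS2, also had 0 fragments in all 6 libraries.

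ALAD (chr9:113386317-113401333, minus strand), which condenses aminolevulinate to porphobilinogen, was at 57.6, 62.5 and 59.5 CPM with DMSO and 56.2, 61.6 and 59.7 CPM with S767. The groups overlapped, with a log2 fold change of -0.02 (SE 0.05, 95% interval -0.13 to 0.10). UROS (chr10:125784980-125823285, minus strand), which closes the ring to uroporphyrinogen III, was at 58.6, 60.4 and 60.4 CPM with DMSO and 57.1, 61.9 and 61.7 CPM with S767. Its groups overlapped too, and its log2 fold change was 0.01 (SE 0.04, 95% interval -0.09 to 0.11). UROD (chr1:45012147-45015575, plus strand), which decarboxylates uroporphyrinogen to coproporphyrinogen, was at 51.5, 49.9 and 48.4 CPM with DMSO and 48.7, 49.3 and 49.3 CPM with S767. The S767 values of UROD lay inside the DMSO range, and its log2 fold change was -0.02 (SE 0.04, 95% interval -0.12 to 0.07).

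For these cytosolic enzymes the 95% intervals ran together from -0.13 to 0.11 on the log2 scale. The later, mitochondrial enzymes had slightly larger estimates, each above 0. CPOX (chr3:98579446-98593723, minus strand), which oxidises coproporphyrinogen, was at 74.8, 71.0 and 62.3 CPM with DMSO and 74.9, 75.3 and 67.7 CPM with S767. Its groups overlapped, and replicate 3 was the lowest library of each group. The log2 fold change of CPOX was 0.07 (SE 0.07, 95% interval -0.10 to 0.23).

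PPOX (chr1:161166410-161178013, plus strand), which makes protoporphyrin, was the least abundant detected enzyme, at 16.0, 15.3 and 14.6 CPM with DMSO and 16.2, 16.0 and 16.5 CPM with S767. The groups overlapped only in that 1 S767 library lay just below the highest DMSO library, and the log2 fold change was 0.08 (SE 0.06, 95% interval -0.05 to 0.21). FECH (chr18:57548283-57586772, minus strand), the ferrochelatase that inserts iron, was at 43.0, 44.2 and 42.2 CPM with DMSO and 43.4, 48.8 and 45.2 CPM with S767. Its groups overlapped, with a log2 fold change of 0.09 (SE 0.05, 95% interval -0.03 to 0.20). CPOX, PPOX and FECH were each higher with S767 in 3 of 3 pairs of libraries with the same number, by as little as 0.0025, 0.015 and 0.014 on the log2 scale.

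For the 6 tested enzymes other than ALAS1, unadjusted P ranged from 0.135 to 0.820 and the edgeR adjusted p was 0.99996 for each. Their 95% intervals together ran from -8.66% to 17.3% as percent change. Of these estimates 4 were above 0 and 2 below, and the median was 0.04 on the log2 scale, or 0.07 with ALAS1 counted, against -0.00024 over all genes tested. The CPM ranges of the groups were separate for ALAS1 alone among the 7 tested, beside 9.21% of all genes tested. With the replicate number as a block, CPOX had a log2 fold change of 0.07 (SE 0.03) and an adjusted p of 0.222 by edgeR, from an unadjusted P of 0.0273. FECH had one of 0.08 (SE 0.03) and an adjusted p of 0.162 by edgeR, from an unadjusted P of 0.0144. Under that model 16.8% of all genes had an unadjusted P under 0.05, and ALAS1 had an adjusted p of 5.98e-07. With the block and 1 pair left out, the edgeR adjusted p of CPOX was 0.00854 without pair 1, where 9.86% of all genes passed 0.05, but 0.726 without pair 2 and 0.706 without pair 3. For FECH the corresponding edgeR adjusted p was 0.00525, 0.746 and 0.373.

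**Figure D4:**
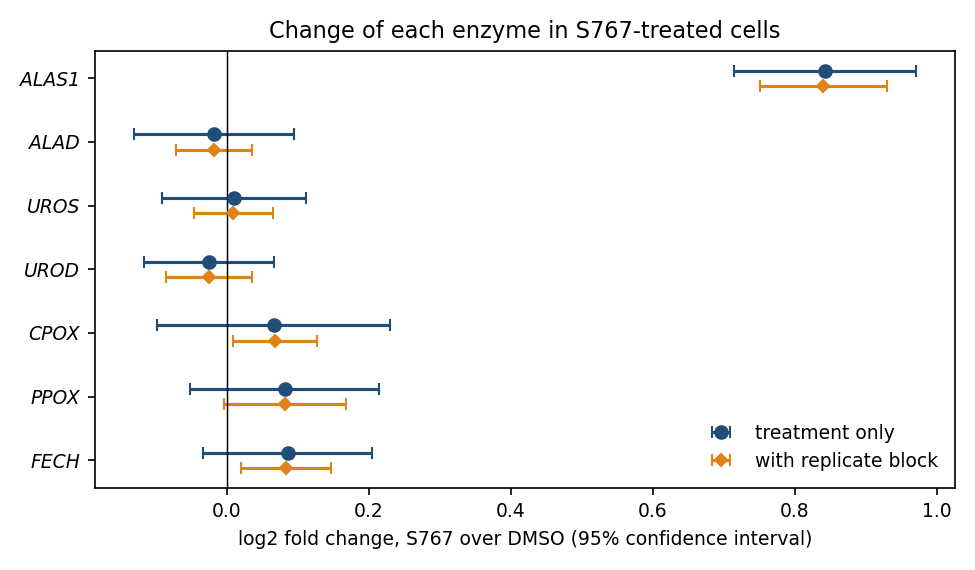
Log2 fold change, S767 over DMSO, of the 7 tested heme biosynthesis genes with 95% intervals from edgeR, without and with the replicate block. The interval of ALAS1 runs from 0.71 to 0.97 without the block, and those of the other 6 enzymes include 0 without it. With the block those of CPOX (0.009 to 0.127) and FECH (0.020 to 0.148) exclude 0, while those of ALAD, UROS, UROD and PPOX include it.

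Some of these levels share reads or sequence with other genes. PPOX overlaps B4GALT3, on the opposite strand, by 6659 bases, and 25.3% to 28.1% of the fragments over PPOX were on the strand of B4GALT3, which was at 61.4 ± 4.40 CPM with DMSO and 62.4 ± 1.67 CPM with S767 (SD, n = 3 each). The counts used here are those on the strand of PPOX. CPOX overlaps AC021660.3 on the same strand by 6053 bases, where that gene had 0 to 6 fragments, and RSEM assigned CPOX 119% to 121% of the fragments that the gene counts did. APEX2 overlaps ALAS2 by 3 bases on the opposite strand, and neither MIR4484, inside UROS, nor FECHP1, a processed copy of FECH, had any fragment.

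Compared per length, the order of the enzymes changed at its top. With DMSO the order by mean TPM was UROD (70.4 ± 2.36), UROS (61.4 ± 1.44), CPOX (47.3 ± 3.71), ALAS1 (40.1 ± 2.43), ALAD (28.6 ± 0.533), FECH (27.9 ± 0.40), PPOX (14.8 ± 0.887) and ALAS2 at 0 (SD, n = 3). Among neighbours in this order only ALAD and FECH overlapped. With S767 it was ALAS1 (72.1 ± 4.70), UROD (68.4 ± 1.25), UROS (62.0 ± 2.32), CPOX (48.7 ± 3.41), FECH (28.9 ± 2.08), ALAD (27.7 ± 0.284), PPOX (15.9 ± 1.08) and ALAS2 at 0 (SD, n = 3). ALAS1 and UROD overlapped, as did FECH and ALAD, so the first place of ALAS1 was not separate from UROD.

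Ratios of TPM within a library show the same shift for each of the other detected enzymes. ALAS1 over UROD went from a mean of 0.571 with DMSO to 1.05 with S767, over UROS from 0.654 to 1.17, and over CPOX from 0.853 to 1.48. Over ALAD it went from 1.404 to 2.60, over FECH from 1.44 to 2.50, and over PPOX from 2.72 to 4.55. None of these 6 ratios overlapped between the groups, and ALAS1 is common to all of them.

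The genes whose log2 CPM followed ALAS1 most closely over the 6 libraries, among 9600 genes with a mean log2 CPM of at least 3, were PML (Pearson r = 0.988), SLC25A4 (0.981), ZNF562 (0.981), GTF2E2 (0.976) and COQ2 (0.976). Their own log2 fold changes were 0.08, 0.18, 0.28, 0.06 and 0.08. All 5 thus had a smaller change than ALAS1, and the points share libraries, treatment and depth. Within the pathway the correlation with ALAS1 was 0.684 for PPOX, 0.621 for FECH, 0.380 for CPOX, 0.073 for UROS, -0.228 for ALAD and -0.415 for UROD. With 2 groups of 3 libraries these values include the difference between the groups.

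A list of 38 genes around the pathway covered substrate supply, mitochondrial transport of iron and porphyrins, turnover of ALAS1 protein, regulators of both synthases, heme degradation and export, and 1 other enzyme of the pathway. Of these, 35 were tested, and 1 was higher and 2 were lower at an unadjusted P under 0.05, beside 2.03% of all genes higher and 1.51% lower (3.53% in either direction), while 0 passed an adjusted p of 0.05 by edgeR. On the log2 scale their median change was -0.0037, beside -0.00024 for all 20725 genes. With the replicate block 6 were higher and 5 lower at an unadjusted P under 0.05, beside 9.38% and 7.39% of all genes. Under the block 2 were higher (TMEM14C and ACO1) and 1 lower (EGR1) at an adjusted p of 0.05, which 3.23% of all genes passed in either direction. The CPM ranges of the groups were separate for TMEM14C, PGRMC1, NRF1, EGR1 and NR1D1, as for 9.21% of all genes tested.

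Among the 9 transport genes, TMEM14C, which serves the import of protoporphyrinogen into the mitochondrial matrix, was at 26.0, 26.2 and 25.0 CPM with DMSO and 28.6, 29.4 and 28.7 CPM with S767. Every S767 library was above every DMSO library. The log2 fold change of TMEM14C was 0.17 (SE 0.05, unadjusted P = 0.00547), with an edgeR adjusted p of 0.99996, or of 0.0106 under the block and 0.284 under the block without pair 2. Without the block the other 8 transport genes did not pass an unadjusted P of 0.05, and neither did any of the 6 substrate supply genes nor the 3 that turn over ALAS1 protein. Under the block SLC25A37, lower with S767 (log2 fold change -0.06), passed it, with an adjusted p of 0.291 by edgeR. SUCLG2 (0.06) and OGDH (0.08), both higher, also passed it, with adjusted p of 0.181 and 0.122 by edgeR.

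Of 6 tested regulators of ALAS1 transcription, 2 had an unadjusted P under 0.05, both lower with S767, and under the block PPARGC1B and NR1D1 had one too (edgeR adjusted p of 0.196 and 0.232). EGR1, an immediate early transcription factor, was at 5.19, 14.4 and 11.3 CPM with DMSO and 4.95, 5.09 and 3.99 CPM with S767. The groups were separate, but DMSO replicate 1 lay close to the S767 libraries. EGR1 had a log2 fold change of -1.13 (SE 0.31, unadjusted P = 0.00603, edgeR adjusted p = 0.99996), or -1.03 with an adjusted p of 0.0161 under the block and -0.79 with one of 0.385 under the block without pair 2. Without the block EGR1 also had a P under 0.05 and a log2 fold change under -0.4, as did 0.796% of all genes. These limits mirror those that the study gave for up-regulated genes. NRF1, a transcription factor of nuclear genes for mitochondrial proteins, was at 33.3, 33.0 and 32.4 CPM with DMSO and 30.9, 31.1 and 30.1 CPM with S767. The groups of NRF1 were separate, and its log2 fold change was -0.10 (SE 0.04, unadjusted P = 0.0417, edgeR adjusted p = 0.99996), or an adjusted p of 0.0725 under the block. The call for NRF1 was lost on leaving out any 1 library, with the unadjusted P reaching 0.133 without S767 replicate 3. PPARGC1A was too low to be tested.

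None of the 3 tested regulators of ALAS2 passed an unadjusted P of 0.05 without the block, and KLF1 was too low to be tested. ACO1, the cytosolic aconitase that also binds iron-responsive RNA elements, was at 33.6 ± 2.49 CPM with DMSO and 36.5 ± 1.89 CPM with S767 (SD, n = 3 each), and its log2 fold change under the block was 0.12 (edgeR adjusted p = 0.0412). That call was lost under the block without pair 2 (adjusted p = 0.326), without pair 3 (0.164) and on library size alone (0.0519). None of the 7 degradation and export genes passed an unadjusted P of 0.05 without the block. BLVRA and FLVCR2, both higher with S767, passed it under the block (edgeR adjusted p of 0.179 and 0.199). HMOX1, the inducible heme oxygenase, ranged from 1.26 to 1.95 CPM with DMSO and from 1.199 to 1.77 CPM with S767, low and overlapping in both groups.

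**Figure D5:**
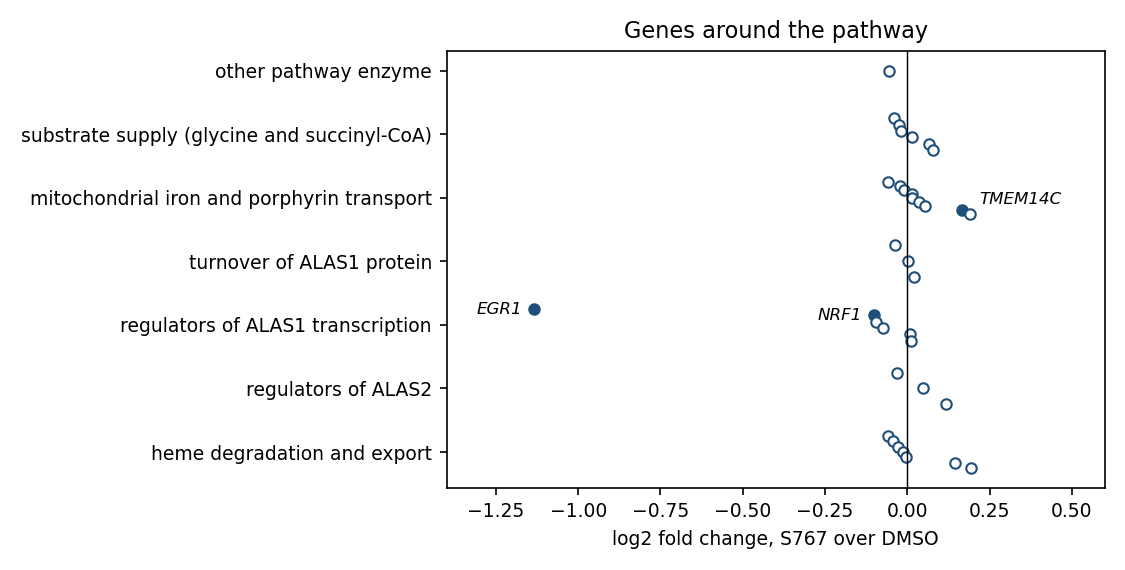
Log2 fold change, S767 over DMSO, of the 35 tested genes around the pathway by role, from edgeR without the block, with filled points for an unadjusted P under 0.05. TMEM14C (0.17), NRF1 (-0.10) and EGR1 (-1.13) are the 3 filled points.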

How the data were processed

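RNA was measured in 6 OCI-AML5 libraries, grouped by the treatment in their labels. The authors trimmed reads with Trimmomatic and aligned them with STAR (2.7.1a per the submitters' processing notes, genome GRCh38); the annotation release was not given in the sources used here. The deposited counts are whole fragments per gene without normalization, and column 4, the strand of the genes, was used. The deposited TPM values and expected counts are RSEM estimates (1.2.28 per the same notes), the expected counts rounded to whole numbers where tested. The 4 summary lines of each count table, 19.7 to 20.7% of fragments, hold no gene and were removed. Columns of other samples numbered 0.

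Symbols were found for 60340 of 60609 identifiers, and positions are from GENCODE 29, whose identifier versions differ from those in the files for all 8 enzymes. Counts were filtered (filterByExpr, minimum count 10), scaled by TMM and tested with the edgeR 4.0.16 quasi-likelihood test in R 4.3.3, treatment only, with Benjamini-Hochberg adjustment over 20725 genes. This left 7 of the 8 enzymes. Changes are log2 fold changes with 95% intervals, and log2 CPM used a prior count of 2. Single values were compared by two-sided exact permutation tests that shuffled all libraries freely and so ignored the pairing by replicate number. The edgeR test without the block was checked on simulated counts. These were drawn without a replicate effect, so the check does not cover the pairing of these libraries. Intervals and limits from counts of 0 cover counting error only.

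The enzymes, the gene lists and the tests were chosen with earlier results of these data known. Named genes are the 8 enzymes, listed genes around the pathway with an unadjusted P under 0.05 or whose level bears on an enzyme, the 5 genes most like ALAS1, and genes overlapping an enzyme. Replicate numbers pair the libraries: deviations from group means over 6191 genes correlated at 0.779, 0.872 and 0.754 for the same number and at -0.241 to -0.623 otherwise. The labels do not say what a number stands for. No 2 libraries were the same, the chi-square per gene being at least 15.5 for any pair. Alternatives were limma-voom (3.58.1), DESeq2 (1.42.0), other scalings, low-count limits and prior counts, expected counts, log2(TPM + 1) and log2(TPM + 0.1) with limma, the replicate block and each library left out. The block with 1 pair left out, with library size alone or with limma-voom was added after seeing the data, as was the comparison of ALAS1 with CPOX left out.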

Additional observations from a re-analysis of the deposited data

Results flagged for a closer look

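Counts on the strand opposite to the genes, which no comparison above uses, showed the same direction for ALAS1. The opposite-strand level of ALAS1 was 0.692 ± 0.150 CPM with S767 and 0.362 ± 0.139 CPM with DMSO (SD, n = 3 each), from 142, 155 and 121 fragments with S767 and 46, 72 and 101 with DMSO. The 3 S767 libraries were above the 3 DMSO libraries (two-sided exact permutation test, p = 0.1, the smallest possible), as in 2.08% of the 12542 genes with at least 60 such fragments. As a share of the ALAS1 fragments on both strands the values were 0.349% to 0.880% with DMSO and 0.560% to 0.787% with S767, which overlapped (exact permutation test, p = 1). On the opposite strand ALAS2 was lower with S767, at 0.0729 ± 0.0147 CPM with DMSO and 0.0442 ± 0.0128 CPM with S767 (SD, n = 3 each). Its libraries did not overlap (exact permutation test, p = 0.1), from 16 fragments or fewer per library. The share of all genes lower in this way was not computed, so no background stands beside it. APEX2, at 5036 to 8507 fragments per library, lies on that strand and overlaps ALAS2 by 3 bases. Whether fragments of APEX2 contribute was not tested.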

How the results depend on the processing

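ALAS1 passed an adjusted p of 0.05 in 20 of 22 alternatives, with log2 fold changes of 0.76 to 0.90 over all 22, and 1 enzyme passed the study's limits in all 22. In log2(TPM + 1) and log2(TPM + 0.1), tested with limma, its change was 0.83 (adjusted p = 0.405) and 0.84 (adjusted p = 0.240), so that 0 enzymes passed, and 0 of all genes passed either. Without 1 library in turn its change was 0.80 to 0.89. ALAS1 against the other enzymes kept its direction in 10 of 10 alternatives (0.75 to 0.85). With the replicate block 1 enzyme still passed an adjusted p of 0.05, and 1 to 3 did on leaving out 1 pair. Genes around the pathway past an unadjusted P of 0.05 numbered 3. The block raised them to 11 (also in limma-voom), or to 12 on library size alone, and leaving out pair 1, 2 or 3 under the block gave 13, 5 and 7.

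Over all genes, the number past an adjusted p of 0.05 was 1 without the block, 670 with it, 25 by DESeq2 and 9 without a limit on low counts. With the block it was 2034 without pair 1 and 24 without pair 2. A P under 0.05 with a log2 fold change beyond 0.4 in either direction was found for 254 genes. That number was 412 with the block, 131 by DESeq2, 563 without a limit on low counts and 36 in log2(TPM + 1). The causes of these differences were not tested.

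Estimates near 0 changed sign when libraries or pairs were left out. Over single libraries left out, ALAD ran from -0.0476 to 0.0190, UROS from -0.00917 to 0.0481 and CPOX from -0.00553 to 0.125 on the log2 scale. With the block, UROD was 0.00374 without pair 1, and UROS was -0.00511 without pair 2 and -0.00293 without pair 3. At this depth a difference in ALAS2 was not detectable.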
